A study of Mus musculus with 12 samples.

Results

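10 apolipoprotein genes were followed through the RNA-seq libraries of the mouse inferior vena cava (IVC). They were chosen by symbol from the 55414 genes of the count table: Apoa1, Apoa2, Apoa4, Apob, Apoc1, Apoc3 and Apoh as genes expressed mainly in liver, and Apod, Apoe and Apom as genes that may also be expressed locally. All 10 had 1 row each in the table. The levels below went against this grouping for 2 genes: Apom was near 0 except where the liver-type genes were high, and Apoc1 was present in every library.

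Apolipoproteins are the protein part of lipoprotein particles, which carry cholesterol and triglyceride through the blood. Hepatocytes and enterocytes assemble the large particles around ApoB, while ApoA-I is the main protein of high-density lipoprotein, and smaller apolipoproteins such as ApoC-I, ApoC-III and ApoE exchange between particles and govern their lipolysis and uptake. ApoE is also made by macrophages, and ApoD, a lipocalin, is made in many tissues outside the liver, including nerve and fibroblasts. In blood vessels, particles that carry ApoB are known for depositing lipid in the wall, and ApoE for helping to clear them.

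The libraries came from 12 wild-type C57BL/6 mice, 10 weeks old, with veins collected on day 7 after the operation. In the AVF group (3 female and 3 male mice), a needle puncture joined the aorta to the IVC, and in the sham group (3 female and 3 male mice) the vessels were exposed and clamped but not punctured. Each mouse gave 1 library of polyadenylated RNA from the IVC. In AVF mice the segment ran from above the fistula to below the left renal vein. The authors do not state how much surrounding tissue was left on it. Mice are named by the number in the sample labels: AVF males #04, #05 and #06, AVF females #07, #09 and #11, sham males #16, #17 and #18, and sham females #19, #22 and #23. The authors set AVF samples #05 and #09 apart as OUT and called the other 4 nAVF. That split was made on the expression of these same samples and is not in the labels, so OUT and nAVF are described here and not tested against each other. It bears on the comparison of AVF with sham, and the fold changes of the genes named there are given with and without #05 and #09 where they could be fitted.

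Total counts were 15177881 to 22717423 per library, with 46.0% of those in #07 and at most 12.6% elsewhere in ribosomal RNA genes. Levels are in normalized CPM, that is, counts divided by a library size corrected with TMM scaling. At this depth 1 count was worth 0.0423 to 0.108 normalized CPM, and the intervals and floors given below cover counting error only. Markers of the labelled tissue were present throughout, with 5 smooth muscle markers summing to 2239 to 4791 normalized CPM and 5 endothelial markers to 1558 to 2651 normalized CPM. In whole tissue, fewer cells of a type and less RNA per cell cannot be told apart.

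7 of the 10 genes were under 1 normalized CPM in all 10 libraries other than #05 and #09, and were high in both of these. They were Apoa1, Apoa2, Apoa4, Apob, Apoc3, Apoh and Apom. Summed over these genes, the level was 0.422 to 2.22 normalized CPM in the 10 libraries, 681.6 in #05 and 1926 in #09. Of the 15912 genes tested in AVF against sham, 267 (1.68%) had the same pattern, that is, under 1 normalized CPM in the 10 libraries and above all of them in both #05 and #09.

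**Figure D1:**
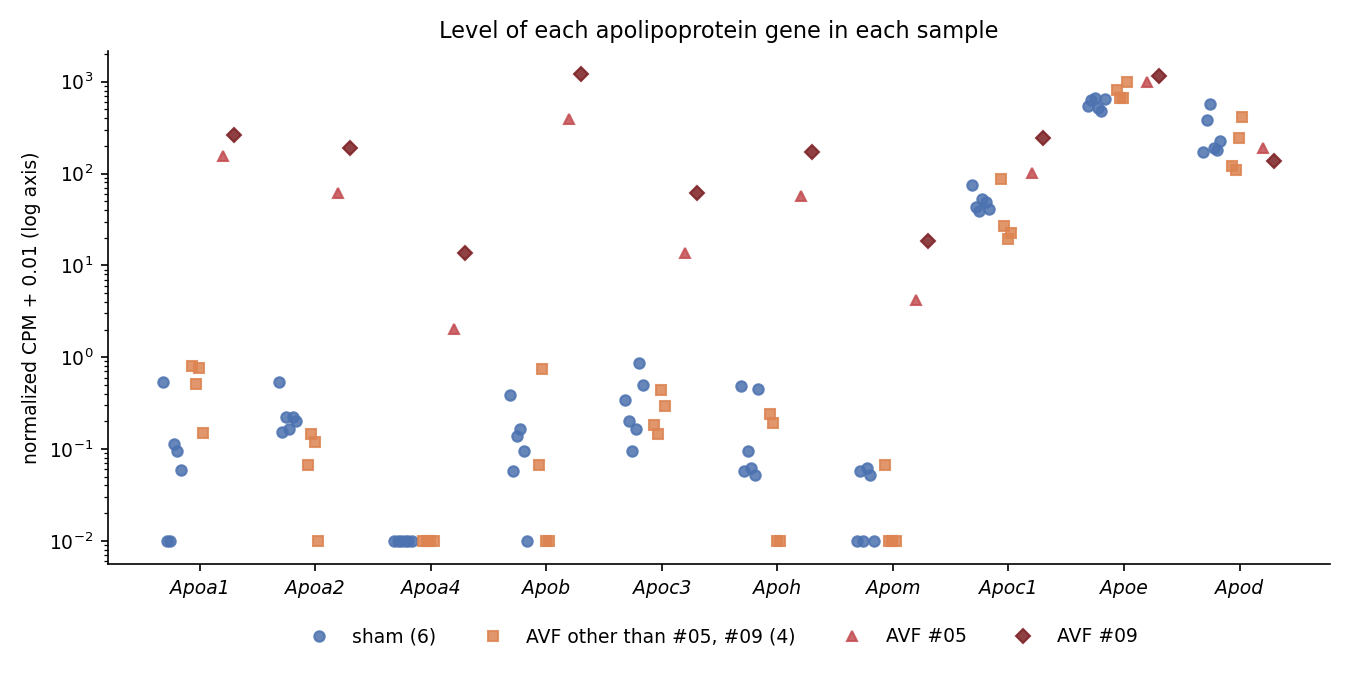
Level of each of the 10 genes in each of the 12 samples, as normalized CPM plus 0.01 on a log axis, with sham samples as circles, the 4 AVF samples other than #05 and #09 as squares, and #05 and #09 as triangles and diamonds. From Apoa1 to Apom, #05 and #09 stand above 1 normalized CPM and the other 10 samples below it, whereas Apoc1, Apoe and Apod are well above 1 in every sample.

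Apob, the scaffold of chylomicrons and very-low-density lipoprotein, had the most counts of the 7 genes in both libraries (chr12:8027648-8066835, plus strand, GRCm39). It stood at 388.5 normalized CPM in #05 and 1211 in #09. In the other 4 AVF samples it was 0.0571 in #04, 0.724 in #06 and 0 in #07 and #11, and in sham samples 0 to 0.378 with a median of 0.106. The other AVF samples and the sham samples overlapped, and a total of 34 counts in the 10 libraries stood against 7991 in #05 and 22109 in #09. Relative to these 10 libraries together, Apob was 2279-fold higher in #05 (95% exact counting interval 1630 to 3294) and 7103-fold higher in #09 (5081 to 10259).

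Apoa1, the gene of the main protein of high-density lipoprotein (chr9:46139878-46142212, plus strand), was at 156.1 normalized CPM in #05 and 263.6 in #09. It was 0.800 in #04, 0.498 in #06, 0.754 in #07 and 0.141 in #11, and 0 to 0.520 in sham samples with a median of 0.0665. #04 and #07 were above every sham sample, although all 10 libraries together held 51 counts. The ratio to the 10 libraries together was 610.6 in #05 (interval 463.3 to 821.9) and 1031 in #09 (782.7 to 1387).

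Apoa2, the second protein of high-density lipoprotein (chr1:171049125-171053948, plus strand), was at 61.2 normalized CPM in #05 and 187.4 in #09. In the other AVF samples it was 0.0571 in #04, 0.136 in #06, 0.108 in #07 and 0 in #11, all below the lowest of the sham samples, which were 0.143 to 0.520 with a median of 0.202. These differences between the 2 groups amount to a few counts, 36 in all in the 10 libraries. Apoh, a phospholipid-binding plasma protein (chr11:108233964-108305232, plus strand), was at 56.2 in #05 and 169.9 in #09, at 0 to 0.229 in the other AVF samples and at 0.0423 to 0.473 in sham samples.

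Apoc3, an inhibitor of the lipolysis of triglyceride-rich particles (chr9:46142527-46146934, minus strand), was at 13.5 normalized CPM in #05 and 62.0 in #09. It was 0.136 to 0.431 in the other AVF samples and 0.0846 to 0.847 in sham samples, so that both ranges overlapped. Apoc3 had the most counts of the 7 genes in sham samples, with 46 over the 6 libraries and 20 of them in #22.

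Apoa4, best known as an intestinal apolipoprotein (chr9:46151994-46154757, plus strand), had no count in any of the 10 libraries. It was at 1.99 normalized CPM in #05 (41 counts) and 13.5 in #09 (246 counts). Against a floor of 3 counts over the 10 libraries together, it was at least 133-fold higher in #05 and at least 896-fold higher in #09. Apom, a lipocalin of high-density lipoprotein made in liver and kidney (chr17:35347973-35351026, minus strand), was at 4.13 in #05 and 18.5 in #09 and had 4 counts in the 10 libraries, none with more than 1.

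In AVF against sham over all 12 samples, 6 of the 10 genes were DEG and higher in AVF by edgeR's quasi-likelihood test (adjusted p below 0.05, at least a 2-fold change), and none was lower. Over all tested genes, 3.37% were DEG and higher and 1.40% DEG and lower. Count and share cannot be set against each other here, because these genes passed the filter of more than 1 CPM in at least 2 samples only through #05 and #09. The log2 fold changes were 10.92 ± 2.69 for Apob (SE, n = 6 per group, edgeR adjusted p = 0.0213), 9.08 ± 2.15 for Apoa1 (adjusted p = 0.0182), 7.62 ± 2.04 for Apoh (adjusted p = 0.0291), 7.40 ± 2.00 for Apoa2 (adjusted p = 0.0299), 7.01 ± 1.93 for Apom (adjusted p = 0.0322) and 5.16 ± 1.52 for Apoc3 (adjusted p = 0.0412). Apoa4 did not pass (edgeR adjusted p = 0.0856), and its fitted fold change has no sham count to rest on. No gene had every AVF sample above every sham sample, which 4.55% of tested genes had. For genes lower in AVF, the count of 0 held also by DESeq2 and by the edgeR exact test, and no member had an unadjusted p under 0.05 with a lower level.

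Without #05 and #09, none of the 7 genes passed the filter, and so the count of DEG among the members was 0, beside 2.32% of all 15531 genes then tested as DEG and higher. Without #05 alone or #09 alone, the 7 genes again failed the filter and were not tested, so a count of 0 there was fixed by the filter. The count was 2, Apoa1 and Apob, without any 1 of the sham samples. With the filter lowered to more than 12 counts, an alternative chosen after seeing the data, 6 of the 7 genes could be fitted without #05 and #09. Apoa1 was then at 2.02 ± 0.94 on the log2 scale (edgeR adjusted p = 0.232) and Apob at 0.64 ± 1.12 (adjusted p = 0.793), while Apoa2, Apoc3, Apoh and Apom had log2 fold changes below 0, between -1.66 and -0.52, and adjusted p of 0.251 to 0.853.

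**Figure D2:**
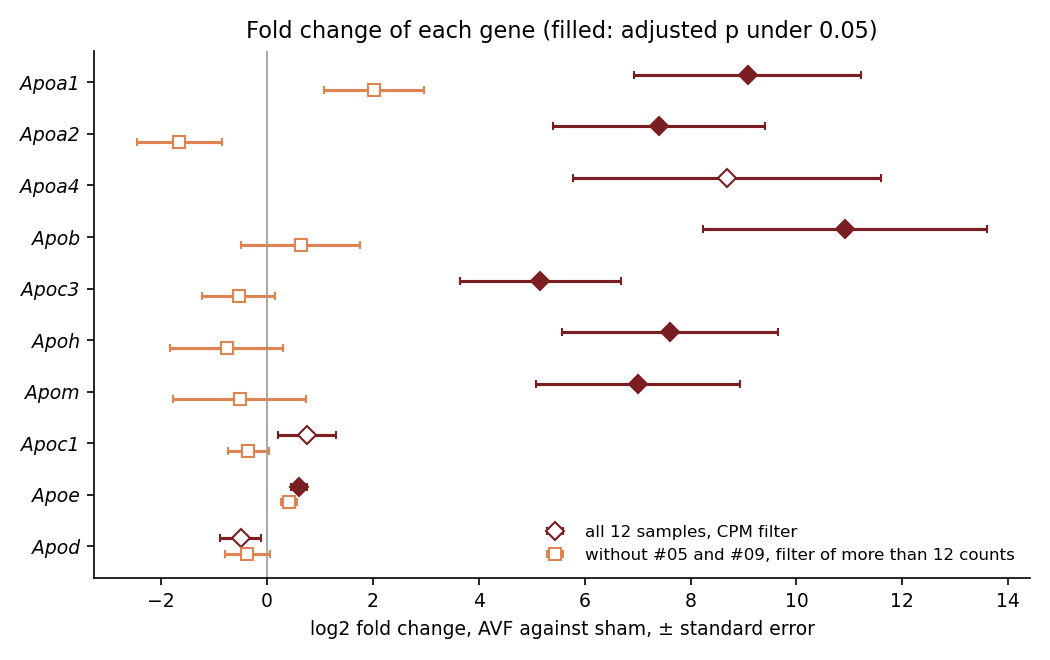
Log2 fold change of each gene in AVF against sham, with bars of 1 standard error, over all 12 samples (diamonds) and without #05 and #09 with the filter lowered to more than 12 counts (squares, 4 AVF against 6 sham samples), where filled symbols have an adjusted p under 0.05. The 6 DEG, at 5.16 to 10.92 over all samples, lie between -1.66 and 2.02 without #05 and #09, Apoe stays above 0 with an adjusted p of 0.132 under this lower filter, and Apoa4 has no value without these samples.

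Hepatocyte markers moved with these genes. 15 markers summed to 4456 normalized CPM in #05 and 13049 in #09, against 278.5 to 705.8 in the other AVF samples and 262.0 to 557.7 in sham samples. Outside #05 and #09, most of each sum was 1 marker, Trf, at 259.1 to 694.8 normalized CPM. Trf was at 884.8 in #05 and 2311 in #09. The 15 markers took 0.476% of all counts in #05 (95% exact binomial interval 0.473% to 0.479%) and 1.31% in #09 (1.31% to 1.32%). 14 of the 15 were DEG and higher in AVF, where 3.37% of all tested genes were, but the others than Alb, Serpina1b, Ahsg, Trf and Mup3 passed the filter only through #05 and #09, and so the count cannot be set against that share. Without #05 and #09, these 5 were tested and none was called. Alb, the gene of serum albumin, was at 1850 in #05 and 5585 in #09. Hnf4a, a transcription factor of hepatocytes and enterocytes that is known to act on many apolipoprotein genes, was at 27.6 in #05 and 100.6 in #09, with 1 count in the other 10 libraries. It was the highest of 8 liver transcription factors listed, of which 4 were under 1 normalized CPM in #05 and 1 in #09. Onecut1, for example, had 0 counts in #05 and 198 in #09. The 10 enterocyte markers summed to 23.2 normalized CPM in #05 and 55.7 in #09, against 4.52 to 5.60 in the other AVF samples and 5.25 to 8.13 in sham samples. Of these, 3 were higher in #05 and #09 than in any other sample: Mttp, which hepatocytes also express, at 18.7 and 48.1, Fabp2, an intestinal fatty acid binding protein with no count in the other 10 libraries, at 2.53 and 4.60, and Cdhr5, a cadherin of the brush border, at 1.94 and 2.52. The other 7 were under 1 normalized CPM in both, among them Lct at 0 and 0.0548 and Alpi, Sis and Cdx2 at 0. The 8 kidney tubule markers summed to 5.01 in #05, 3.56 in #09 and 2.08 to 4.80 elsewhere, and the 8 pancreatic acinar markers to 3.26, 2.08 and 1.81 to 5.34. The 5 adrenal cortex markers summed to 10.4 in #05 and 8.71 in #09, above all other samples. They were at 4.85 to 7.92 in the other AVF samples and 2.46 to 5.25 in sham samples. 3 of these 5 markers were under 1 normalized CPM in both #05 and #09. The sum was mostly Star, at 4.67 in #05, 4.16 in #09 and up to 4.51 elsewhere, and Cyp11b1, at 5.25, 4.16 and up to 5.11. Neither gene by itself set both samples above all others. The part of liver or intestinal RNA in the levels of the apolipoprotein genes was not tested.

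The 7 genes were not in the same proportions in #05 and #09. Apob, Apoa2 and Apoh were 3.12-fold (95% exact counting interval 3.04 to 3.20), 3.06-fold (2.87 to 3.27) and 3.02-fold (2.82 to 3.24) higher in #09 than in #05, close to Alb at 3.02-fold (2.98 to 3.06). Apoa1 was only 1.69-fold higher (1.61 to 1.77). Apom, Apoc3 and Apoa4 differed more, at 4.47-fold (3.51 to 5.73), 4.61-fold (4.04 to 5.27) and 6.76-fold (4.84 to 9.65). Per 100 normalized CPM of Alb, Apoa1 was at 8.44 in #05 and 4.72 in #09, while Apob was at 21.0 and 21.7. These are differences between 1 library and another, so the intervals carry no spread between mice.

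**Figure D3:**
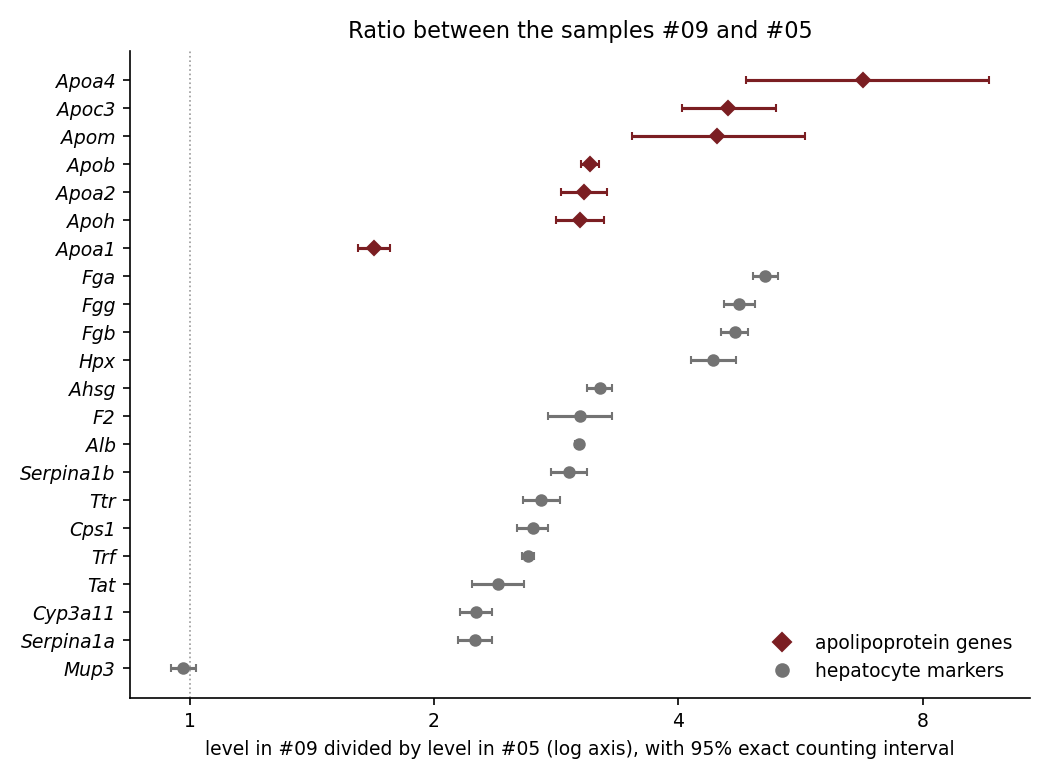
Level in #09 divided by level in #05 for the 7 apolipoprotein genes (diamonds) and the 15 hepatocyte markers (circles), on a log axis with 95% exact counting intervals. The apolipoprotein genes run from 1.69 for Apoa1 to 6.76 for Apoa4 with a median of 3.12, and the markers from 0.982 for Mup3 to 5.12 for Fga with a median of 2.93.

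In the share of counts among the 7 genes grouped as liver-type, Apob held 49.9% in #05 and 56.3% in #09, and Apoa1 20.0% in #05 and 12.3% in #09. Apoc1 held 13.1% in #05 and 11.4% in #09, but 98.0% in the sham libraries together and 97.2% in the other AVF libraries together. Outside #05 and #09, the liver-type group was therefore almost entirely Apoc1.

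The bases ahead of the start sites of these genes were read from the promoter table of RefSeq (GRCm38.p6), which had 8 of the 10 genes, without Apoc1 and Apoc3, and were placed on GRCm39 by exact match. Shown are 3 genes that are high only in #05 and #09 and Apod, which is present in every sample, each up to the first base of an annotated exon. Capitals mark TATAAA, the core of a TATA box, and CAAAGGTC on either strand, letters of the motif that HNF4A binds.
Apob, chr12:8027427-8027647, plus strand: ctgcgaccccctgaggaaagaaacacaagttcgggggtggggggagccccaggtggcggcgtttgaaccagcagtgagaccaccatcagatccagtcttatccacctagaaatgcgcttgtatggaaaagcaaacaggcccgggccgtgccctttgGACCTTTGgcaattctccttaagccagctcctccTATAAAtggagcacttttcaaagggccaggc
Apoa1, chr9:46139678-46139877, plus strand: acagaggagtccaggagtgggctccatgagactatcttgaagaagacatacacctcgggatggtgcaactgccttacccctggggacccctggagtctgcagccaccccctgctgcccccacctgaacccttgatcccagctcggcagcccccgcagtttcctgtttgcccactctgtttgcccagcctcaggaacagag
Apoh, chr11:108285873-108286097, plus strand: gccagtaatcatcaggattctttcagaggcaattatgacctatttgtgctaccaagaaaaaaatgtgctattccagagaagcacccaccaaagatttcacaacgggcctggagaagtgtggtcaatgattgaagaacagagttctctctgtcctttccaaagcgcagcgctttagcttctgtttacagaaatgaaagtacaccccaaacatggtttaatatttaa
Apod, chr16:31133654-31133876, minus strand: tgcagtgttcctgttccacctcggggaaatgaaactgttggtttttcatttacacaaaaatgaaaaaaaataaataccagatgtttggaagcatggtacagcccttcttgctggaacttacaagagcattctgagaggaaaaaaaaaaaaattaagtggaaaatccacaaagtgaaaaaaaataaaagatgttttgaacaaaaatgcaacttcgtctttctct

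Of the 8 windows of 250 bases, those of Apoa2, Apoa4 and Apoe lay whole, and that of Apom for 249 bases, within annotated exons, and so are not comparable with the others. Among the 4 windows shown, Apob was the only 1 with CAAAGGTC or CAAAGTCC, a second form of the HNF4A letters that shares their first bases, within the 250 bases before its start. Over all 32851 promoters of the table, searched on both strands over the same length, 2.19% held one of these. TATAAA was in the window of Apob, in that of Apoa2, which is within an exon, and in 12.4% of all promoters. A missing match says only that these letters are not in these bases.

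2 chromosomal clusters held 5 of the 10 genes, and they differed in where their genes were detected. On chromosome 9, Apoa1, Apoc3, Apoa4 and Apoa5 lie within 43.3 kb (chr9:46139878-46183217). All 4 were near 0 outside #05 and #09, with Apoa5, a regulator of plasma triglyceride, at 15.1 normalized CPM in #05, 47.3 in #09 and at most 0.189 elsewhere. On chromosome 7, Apoe, Apoc1, Apoc4 and Apoc2 lie within 29.4 kb (chr7:19405504-19434947). Apoe and Apoc1 were present in all 12 samples, while Apoc4 was at 5.93 in #05, 18.0 in #09 and at most 0.145 elsewhere, and Apoc2, the cofactor of lipoprotein lipase, at 1.75, 6.35 and at most 0.562.

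Apoc1, an inhibitor of the uptake of lipoproteins by their receptors (chr7:19422540-19427328, minus strand), was at 39.03 to 74.5 normalized CPM in the 6 sham samples, with a median of 46.3. In AVF samples it was 87.6 in #04, 101.9 in #05, 26.8 in #06, 19.2 in #07, 244.3 in #09 and 22.7 in #11. AVF samples thus fell on both sides of the sham group, with 3 above its highest and 3 below its lowest sample. The log2 fold change in AVF against sham was 0.75 ± 0.55 (edgeR adjusted p = 0.378), and -0.35 ± 0.40 without #05 and #09 (adjusted p = 0.607), so the direction depended on these samples. Relative to the 10 libraries together, Apoc1 was 2.20-fold higher in #05 (interval 2.10 to 2.31) and 5.28-fold higher in #09 (5.10 to 5.48), far less than any of the 7 genes that were near 0 elsewhere.

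**Figure D4:**
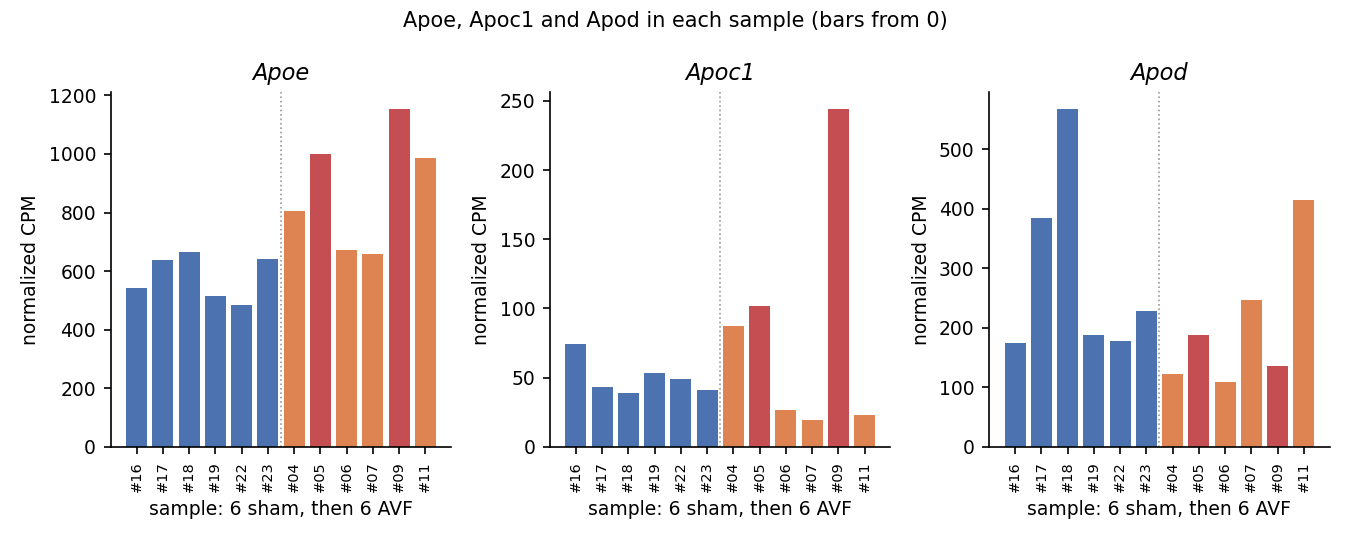
Level of Apoe, Apoc1 and Apod in each sample, as bars of normalized CPM from 0, with the 6 sham samples to the left of the dotted line and the 6 AVF samples to the right, #05 and #09 in red. For Apoe, 5 of 6 AVF samples exceed every sham sample, Apoc1 is highest in #09 at 244.3, and Apod is highest in the sham samples #18 and #17 and in the AVF sample #11.

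Apoe, the ligand that clears remnant particles through receptors of the LDL receptor family (chr7:19430034-19434947, minus strand), had the highest level per kilobase of coding sequence of the 10 genes, both by the sham median and in #05 and #09. In sham samples it was at 541.1 normalized CPM in #16, 636.8 in #17, 666.1 in #18, 515.2 in #19, 485.3 in #22 and 640.4 in #23. In AVF samples it was at 806.7 in #04, 1000 in #05, 672.5 in #06, 658.2 in #07, 1154 in #09 and 987.1 in #11. All AVF samples but #07 were above the highest sham sample, and #07 was below #18 by less than the sham SD.

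The mean of Apoe was 879.8 ± 199.3 normalized CPM in AVF and 580.8 ± 76.1 in sham (SD, n = 6 each). The log2 fold change was 0.60 ± 0.15 (edgeR quasi-likelihood test, adjusted p = 0.0227), a rise under 2-fold, so that Apoe was not a DEG. Over all tested genes, 8.63% were higher in AVF with an adjusted p under 0.05. The call was close to the threshold: the edgeR adjusted p was 0.0502 without #05, 0.0511 without #22, and 0.0876 without both #05 and #09, where the log2 fold change was 0.43 ± 0.14 and 5.87% of all tested genes were higher with an adjusted p under 0.05. The other 4 AVF samples averaged 781.1 ± 152.8 (SD, n = 4), and 3 of these 4 were above every sham sample.

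Macrophage markers moved in the same direction. Of 10 markers, 8 were higher in AVF with an adjusted p under 0.05 and none was lower, where 8.63% of all tested genes were higher. Their median log2 fold change was 0.81, beside -0.01 over all tested genes. Without #05 and #09 the count was again 8, where 5.87% of all tested genes were higher. Their summed level was 1182 to 1939 normalized CPM in AVF samples and 648.4 to 1091 in sham samples, without overlap. This sum leans on Lyz2, the highest marker in every sample, at 503.5 to 747.8 in AVF and 242.0 to 458.4 in sham samples. Not every marker was without overlap: Gpnmb was at 35.9 to 123.1 in AVF and 64.4 to 119.2 in sham samples. Within the AVF group the order differed from that of Apoe: #09, with the highest Apoe, had the lowest macrophage sum. Fibroblast markers moved in this direction as well. Of 6 tested, 4 were higher in AVF with an adjusted p under 0.05 and none was lower, and 3 were higher without #05 and #09. The fibroblast sum was 10207 to 15821 normalized CPM in AVF and 5473 to 10080 in sham samples, also without overlap. This sum leans on Col1a1, the highest of these markers in every AVF sample, at 5391 to 10531 in AVF and 2116 to 5128 in sham samples. Lum and Pi16 were without overlap as well, whereas the groups overlapped for Dcn, Pdgfra and Dpt. The part of macrophages, of fibroblasts or of liver RNA in the level of Apoe was not tested.

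Apod (chr16:31115010-31135355, minus strand) was second to Apoe in sham samples per kilobase of coding sequence. In sham samples it was at 173.6 normalized CPM in #16, 383.8 in #17, 567.8 in #18, 188.6 in #19, 178.6 in #22 and 227.5 in #23. In AVF samples it was at 121.5 in #04, 187.7 in #05, 108.9 in #06, 246.7 in #07, 136.2 in #09 and 414.8 in #11. The groups overlapped, although 3 AVF samples, #04, #06 and #09, were below every sham sample. The log2 fold change was -0.50 ± 0.39 (edgeR adjusted p = 0.401), and this difference was within the spread between mice. It was -0.35 ± 0.44 without #05 and #09 (adjusted p = 0.637).

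#05 and #09 were not the highest samples for Apod: their ratios to the 10 other libraries were 0.702 (interval 0.679 to 0.725) and 0.509 (0.489 to 0.530), and their levels lay within the range of the other AVF samples. The 6 Schwann cell markers, genes of the glia that sheathe peripheral nerve, summed to 332.9 to 808.7 normalized CPM in sham samples and 185.7 to 419.0 in AVF samples, and none had an adjusted p under 0.05. Their part in the level of Apod was not tested.

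Per kilobase of coding sequence, which allows levels of different genes to be compared, the median of the sham samples was 631.2 normalized CPM per kb for Apoe, 366.9 for Apod and 175.4 for Apoc1, and under 1 for the other 7 genes. Apoe was above Apod in 5 of 6 sham samples, the exception being #18, where Apod was at 1001 and Apoe at 713.9. Apoc1 was below both in every sham sample. In #09 the order was Apoe at 1237, Apoc1 at 925.3, Apoa2 at 612.4, Apoa1 at 332.8 and Apod at 240.2, followed by Apoh at 164.2, Apoc3 at 143.6, Apob at 89.6, Apom at 32.4 and Apoa4 at 11.4. Apob thus had the most counts of the 7 genes high only in #05 and #09 but, with the longest coding sequence at 13.5 kb, a lower level per kb than Apoa1, Apoa2, Apoc3 and Apoh.

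The sexes were compared within each group, because the design had 3 female and 3 male mice in each. No member was called between female and male AVF or between female and male sham samples at a change of at least 1.5-fold by edgeR's quasi-likelihood test, nor by DESeq2. Over all genes, 0.0316% were DEG between the sexes in AVF and 0.0818% in sham. An unadjusted quasi-likelihood p under 0.05 was found for 731 of 22124 genes in AVF and for 2030 of 21992 in sham. Among members it was found for 0 of the 10 tested in AVF and for 1 of the 9 tested in sham, Apod. In AVF, the number of DEG over all genes was 7, and 14 with the replicate number as a block, which changed no call of a member. #05 is male and #09 is female, so both sexes held 1 AVF sample with high liver-type genes, and the SE of the difference between the sexes was 2.12 to 3.02 on the log2 scale for the 7 genes.

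Apod was the member with the lowest p in the test of whether the AVF change differed between the sexes. In sham samples the male mean was 375.1 ± 197.3 and the female mean 198.2 ± 25.8 normalized CPM, and in AVF samples the male mean was 139.3 ± 42.3 and the female mean 265.9 ± 140.3 (SD, n = 3 each). The interaction of operation and sex was 1.81 ± 0.61 on the log2 scale, with an edgeR adjusted p of 0.960 and an unadjusted quasi-likelihood p of 0.0118. No gene among 22163 was called in this test by edgeR, with 1069 at an unadjusted p under 0.05, and DESeq2 called 5, none of them a member. Apoe differed by 0.31 ± 0.32 (adjusted p = 0.960). Without #05 and #09 the interaction was 2.39 ± 0.56 for Apod (edgeR adjusted p = 0.513) and 0.27 ± 0.31 for Apoe (adjusted p = 0.849).

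Among 19 other genes of apolipoproteins and of enzymes that travel with them, 18 were tested, of which 8 were DEG and higher in AVF and 1 was DEG and lower, where 3.37% of all tested genes were DEG and higher and 1.40% DEG and lower. 7 of the 8, Apoa5, Apoc4, Apof, Apon, Saa1, Saa2 and Saa4, were under 1 normalized CPM in the 10 other libraries and passed the filter only through #05 and #09, so this count cannot be set against that share. Without #05 and #09, 10 were tested and 1, Saa3, was DEG and higher. The levels of the 7 genes were 2.87 to 17.9 in #05 and 18.0 to 113.6 in #09. Saa1 and Saa2, the acute-phase forms of serum amyloid A in liver, had the widest gap between these samples, at 6.03 and 2.87 in #05 against 113.6 and 82.2 in #09, while Saa4, the constitutive form, was at 17.9 against 95.2.

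Saa3, a serum amyloid A gene that macrophages and fat also express, behaved differently from these. It was at 12.9 normalized CPM in #04, 10.8 in #05, 2.94 in #06, 4.09 in #07, 7.12 in #09 and 4.92 in #11, and at 0.803 to 3.00 in sham samples. All AVF samples but #06 were above the highest sham sample. The log2 fold change was 2.09 ± 0.40 (edgeR adjusted p = 0.00641), and without #05 and #09 1.90 with an adjusted p of 0.0257. Apoo, the gene of a subunit of the mitochondrial cristae complex despite its name, was lower at -1.03 ± 0.27 (adjusted p = 0.0258), from 22.4 to 61.5 in sham samples to 15.4 to 29.1 in AVF samples, with an adjusted p of 0.0508 without #05 and #09. The 6 brown fat markers summed to 105.6 to 1497 normalized CPM in sham and 18.4 to 212.1 in AVF samples. 3 of them were lower with an adjusted p under 0.05, where 5.13% of all tested genes were. The 7 white fat markers overlapped, at 3177 to 7577 in sham and 3447 to 7848 in AVF samples, and none was called. The part of fat in the level of Apoo was not tested.

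Genes that load, unload, take up and export lipoprotein lipid were counted by role, beside 8.63% of all tested genes higher and 5.13% lower with an adjusted p under 0.05. Of 9 lipases and carriers, 3 were higher and none lower. Of these, Lipc passed the filter only through #05 and #09, so this count cannot be set against the share. Without #05 and #09, 8 were tested and none was called. Lipc, the hepatic lipase, followed #05 and #09, at 3.35 normalized CPM in #05, 9.64 in #09 and at most 0.215 in the other samples. Lipa, the lysosomal acid lipase, and Pltp, which transfers phospholipid between particles, rose by 0.37 ± 0.11 and 0.52 ± 0.15 on the log2 scale (edgeR adjusted p of 0.0373 and 0.0407), and neither passed without #05 and #09 (0.116 and 0.0520). Lpl, the lipase of fat and muscle, was at 1927 to 3939 in AVF and 2183 to 4822 in sham samples and did not pass (adjusted p = 0.407, and 0.398 without #05 and #09).

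Of 5 assembly genes, 2 were higher and none lower, with and without #05 and #09. Surf4, a cargo receptor that exports lipoproteins from the endoplasmic reticulum, was at 136.2 to 202.0 normalized CPM in AVF and 103.1 to 124.6 in sham samples, without overlap, at 0.48 ± 0.09 on the log2 scale (edgeR adjusted p = 0.00540, and 0.0304 without #05 and #09). Apobec1, the enzyme that edits the Apob transcript, rose by 0.60 ± 0.17 (adjusted p = 0.0357, and 0.0206 without them). Mttp, which loads lipid onto ApoB, was at 18.7 in #05, 48.1 in #09 and 4.09 to 6.73 elsewhere, and did not pass at 1.41 ± 0.59 on the log2 scale (adjusted p = 0.123). It was -0.19 ± 0.18 without #05 and #09 (adjusted p = 0.525).

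Of 19 receptors and their regulators, 18 were tested, of which 2 were higher and 1 was lower. Lrp1, a receptor for ApoE-rich remnants, rose by 0.61 ± 0.15 on the log2 scale (edgeR adjusted p = 0.0224, and 0.0169 without #05 and #09), and Msr1, the macrophage scavenger receptor, by 0.75 ± 0.19 (0.0252, and 0.0583 without them). Vldlr, a receptor for triglyceride-rich particles, fell by 0.42 on the log2 scale (SE 0.10, adjusted p = 0.0197, and 0.0905 without them). The median log2 fold change of the tested receptors was 0.17, beside -0.01 over all genes. Without #05 and #09, 17 receptors were tested and their median was -0.10, beside -0.03 over all genes, so its sign depended on these samples.

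Of 17 genes of cholesterol efflux and its control, 16 were tested, of which 3 were higher and none lower. Soat1, which esterifies cholesterol for storage in macrophages, was at 41.1 to 52.9 normalized CPM in AVF and 23.6 to 40.0 in sham samples, without overlap, at 0.70 ± 0.12 on the log2 scale (edgeR adjusted p = 0.00404, and 0.00914 without #05 and #09). Trem2, a macrophage receptor that binds ApoE and lipids and is also one of the macrophage markers above, rose by 1.32 ± 0.36 (adjusted p = 0.0299, and 0.0435 without them), and Rxra, a partner of the LXR nuclear receptors, by 0.36 ± 0.10 (0.0323, and 0.0918 without them). Abca1 and Abcg1, the main exporters of cholesterol to ApoA-I and ApoE, had log2 fold changes of 0.26 ± 0.11 and 0.29 ± 0.12 and did not pass (0.113 and 0.125, and 0.118 and 0.0649 without #05 and #09).

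**Figure D5:**
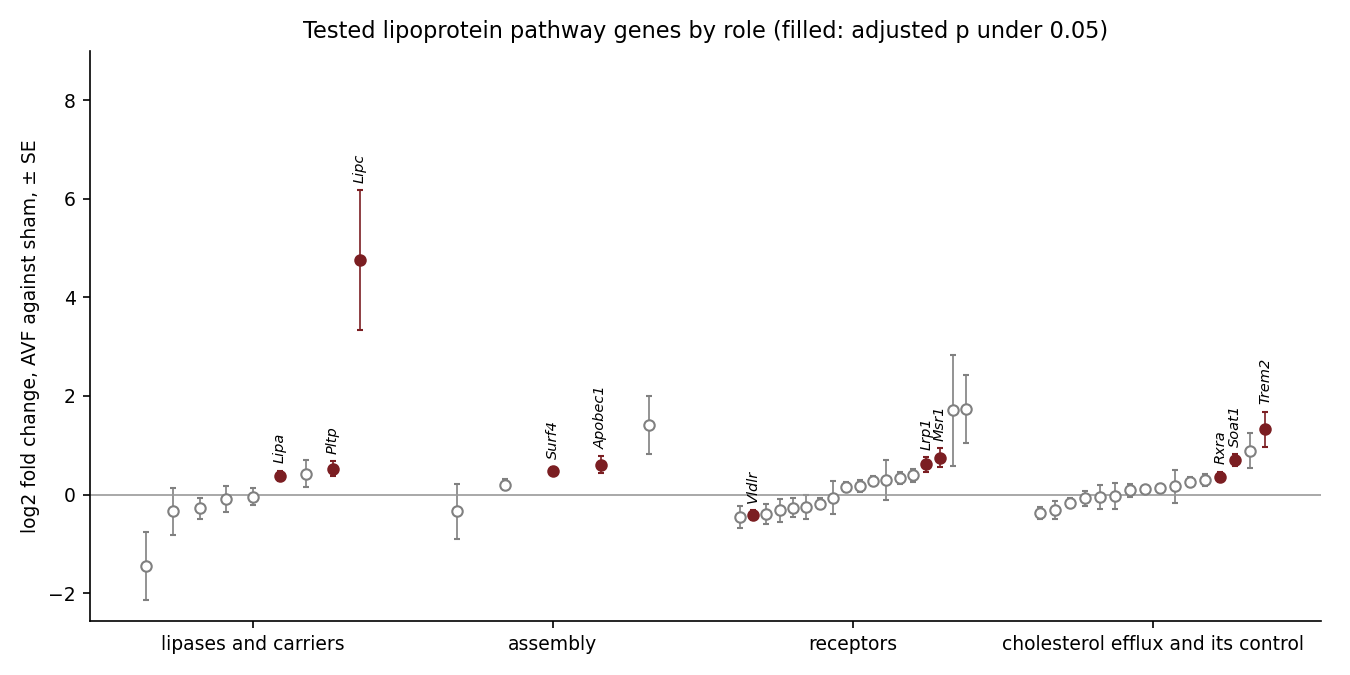
Log2 fold change in AVF against sham, with bars of 1 standard error, of the tested genes of 4 roles in lipoprotein metabolism, ordered by fold change within each role, with filled and named symbols for an adjusted p under 0.05. Lipc, at 4.76, is far higher in #05 and #09 than in the other samples, and the other named genes lie between -0.42 for Vldlr and 1.32 for Trem2.

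The genes most like 4 of the members were listed by Pearson's correlation of log2 normalized CPM over the 12 samples, among 15902 tested genes that are not members. For Apoa1 these were Gc, Alb, Ugt2b1, Hpx and Ces3a (r of 0.977 to 0.962), and for Apom Serpina10, Sds, Mst1, Asgr1 and Cpn1 (0.989 to 0.987). Both lists hold genes high in #05 and #09, and their correlations rest on these 2 samples. For Apoe the genes were Cyp4f14, Prg4, Ostc, Timp1 and Kctd17 (0.943 to 0.917), and for Apod Klf5, Cadm4, Fam83f, Igsf1 and Slitrk5 (0.913 to 0.888). Samples share operation, sex and tissue composition, and the correlations are given as a description over all 12 samples, not repeated without #05 and #09.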

How the data were processed

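The libraries of 12 mice, 6 AVF and 6 sham, were used, 1 for each mouse. Reads had been trimmed by the authors with Trimmomatic (v0.39) and PRINSEQ and aligned with STAR (v2.7.7a) to GRCm39, and the deposited values are the authors' expected counts per gene from RSEM (v1.3.3), which were not normalized and share reads between similar sequences. Gene names and coordinates came from GENCODE M39, a later release on the same build.

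Counts were rounded and scaled by TMM in edgeR (v4.0.16, R v4.3.3). The quasi-likelihood test of edgeR was used, with Benjamini-Hochberg adjustment over all tested genes, so p-values measure the spread between mice. AVF and sham were compared over genes above 1 CPM in 2 samples or more (15912 genes), and the sexes and the interaction over genes with a total above 12 counts. The fit was tested on simulated data. Alternatives were DESeq2 (v1.42.0), the exact test, other scalings and filters, sex as a covariate, a replicate block and leaving out samples. Ratios of counts have exact conditional binomial intervals at 95% confidence.

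Named were the 10 members and, from the lists of related genes, the 12 with the lowest adjusted p and those counted in the text. A few genes and motifs are not reported here. The members and lists were chosen with earlier results of these data known. Replicate numbers in the labels were checked for pairing: between female and male AVF samples the correlation of deviations was 0.148 to 0.632 over 3 pairs, which counted as paired, although #05 and #09 share the number 2, and the other comparisons had a pair below 0.1. Log2 CPM for correlations had a prior count of 1. The length used per kb is the coding length, without UTRs.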

Additional observations from a re-analysis of the deposited data

Results flagged for a closer look

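Within each group of 6 samples, the gap between the highest or lowest sample and its nearest neighbour was divided by the range of the group. This was done for the 10 genes and for a list of other genes named in the text, in the 64 groups with more than 3 counts in some library. The list did not hold every named gene, and Trf, Fabp2 and Cdhr5 were among those left out. Chance alone passes the 95% limit in about 1 in 20 groups if the groups are independent. Here 26 gaps passed it, of which 19 had #09 as the highest AVF sample. Many of the genes were high only in #05 and #09 and moved together, so this count cannot be set against that share. For such genes the gap in the AVF group depends almost only on the ratio of #09 to #05.

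Among the members, the AVF sample #09 stood apart from the other 5, with a gap over range of 0.852 for Apoa4, 0.785 for Apoc3, 0.776 for Apom, 0.679 for Apob, 0.674 for Apoa2, 0.669 for Apoh and 0.633 for Apoc1. Apoa1 did not pass in AVF, since #05 was nearer to #09 for this gene. The same sample stood apart for Alb (0.669), Hnf4a (0.725), Apoa5 (0.681), Apoc2 (0.724), Apoc4 (0.670), Apof (0.735), Apon (0.785), Lipc (0.652), Mttp (0.669) and Saa4 (0.811), and most of all for Saa1 (0.949) and Saa2 (0.965).

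In the sham group, #16 was the highest sample for Apoa1 (0.799) and Apoa2 (0.818), both at 0.520 normalized CPM from 11 counts, and for Apoa5 (0.724) at 0.189 normalized CPM, and #23 was the highest for Apon (0.650) at 0.242 normalized CPM. #16 was also the lowest sham sample for Surf4 (0.657). Trem2 was highest in #11 among AVF samples (0.812) and in #23 among sham samples (0.633).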

How the results depend on the processing

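Of 228 fold changes of the members in AVF against sham over 25 alternatives, 185 kept their direction and side of the threshold, 34 lost an adjusted p under 0.05, 3 gained it, all for Apoa4, and 6 turned. The DEG of all genes numbered 759, and 2190 with no fold change threshold, 471 without #05 and #09, 440 without them and with the filter of more than 12 counts, and 470 to 1023 without 1 sample, lowest without #22 (470) and #05 (489). The 6 members called higher became 0 without #05 and #09 under either filter, although under the CPM filter they were not tested. Without 1 sample the count was 0 to 6, with 0 where #05 or #09 was left out and these genes failed the filter. With the replicate block, 668 genes and 4 members were called, Apoa4 among them (edgeR adjusted p = 0.0291) and Apoa2, Apoc3 and Apoh no longer; same-numbered AVF and sham samples of 1 sex correlated at -0.218 to 0.283, so this block was not taken as a pairing. DESeq2 and the exact test each called 7. Without #05 and #09, Apoc1 turned to -0.35, and with the filter of more than 12 counts to -0.36, as did Apoa2 (-1.66), Apoc3 (-0.54), Apoh (-0.76) and Apom (-0.52). Another scaling moved the median of all genes from -0.01 to between -0.02 and -0.0045, and turned no member.

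Between the sexes in AVF, the 7 DEG became 59 by DESeq2 and 14 with the replicate block. In sham, the 18 became 239 by DESeq2, 46 with the replicate block, 10 with the filter of more than 1 CPM, and 6 to 60 without 1 sample. For the interaction, 0 became 5 by DESeq2. No member was called in any of these. Apoe between the sexes in AVF ran from -0.019 to 0.37 without 1 sample. Apom turned to -2.23 without #05 and #09 and ran from -7.68 to 7.56 without 1 sample, and in the interaction it turned to -3.21 and ran from -8.63 to 6.78. Among AVF samples, Apom had 85 counts in #05, which is male, 337 in #09, which is female, and at most 1 in any other. The cause of these turns was not tested. Apoa4 and Apom rest on few counts outside #05 and #09, so depth limits what can be said of them there.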
